A study of Homo sapiens with 29 samples.

Results

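Expression of 41 genes of the ATF4 amino acid response was followed in polyA RNA-seq libraries of COLO320DM xenograft tumors. The genes were taken by symbol from the authors' table, and all 41 were found among its 13492 genes: 10 regulators and stress targets, 10 enzymes of amino acid and one-carbon synthesis, 7 amino acid transporters and 14 genes of tRNA charging. COLO320DM is a human colorectal adenocarcinoma cell line that carries many extra copies of MYC. The series concerns helicon peptides against the contact of β-catenin with TCF, and asks what Helicon4 does to tumor transcripts in the animal. Tumors of this one cell line, grown in mice to a mean size of about 300 mm3 before dosing, all carry the label 48hr. They had received vehicle (n = 10 libraries), Helicon4neg at 30 mpk (n = 8), Helicon4 at 30 mpk (n = 6) or Helicon4 at 100 mpk (n = 5), in the dose unit of the labels. Helicon4 and Helicon4neg are known here by these names only, and the labels give no structure, mouse strain or host age. Only the replicate numbers point to separate animals, so the p-values below measure the spread between these libraries.

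ATF4 is a basic leucine zipper transcription factor whose mRNA is translated well when the initiation factor eIF2 is phosphorylated. The kinases that do this include GCN2, which senses uncharged tRNA, and PERK, which senses misfolded protein in the endoplasmic reticulum. Together with C/EBP partners, ATF4 binds C/EBP-ATF response elements and drives genes that import amino acids, make serine, glycine, proline, cysteine and asparagine, and charge tRNAs. MYC-driven tumor cells, which make much protein, are known to draw on this program.

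The C/EBP-ATF response element was searched for as the letters TGATGNAAN, in which N stands for any base, on both strands of the RefSeq promoter windows (GRCh38.p14, 250 bases before to 50 after a start, with 1 or more windows per gene). Of the 41 genes 31 had a window, and 13 of these 31 (41.9%) held the letters, against 4.45% of 27305 genes with a window and 2.69% of the 10756 genes tested below that had one. The 41 genes were picked for their link to ATF4, so a share above that of all genes is tied to that choice. A match describes the sequence and is not a measured binding site. Short stretches around the matches before the start are shown for 4 genes that fell at the higher dose, 1 regulator, 1 enzyme, 1 transporter and 1 synthetase, because these letters recur among the members' promoters. Capitals mark the match, which is written here as it lies on the gene's strand and reads as the reverse complement in CHAC1 and GARS. Positions are chr15:40953251-40953279 on the plus strand for CHAC1, chr7:97872458-97872486 on the minus strand for ASNS, chr19:46784893-46784921 on the minus strand for SLC1A5 and chr7:30594834-30594862 on the plus strand for GARS, and GENCODE 29 places transcribed sequence of the same gene at each. The matches began 210, 68, 97 and 34 bases before a RefSeq start of the gene, in the order named.
CHAC1: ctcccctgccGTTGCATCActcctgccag
ASNS: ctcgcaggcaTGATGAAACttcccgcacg
SLC1A5: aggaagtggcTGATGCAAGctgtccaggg
GARS: ttacgcggcgATTTCATCAtgctccgagc

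The other genes with a match were SLC3A2, SLC7A1, SLC38A1, AARS, CARS, IARS, MARS, NARS and TARS. Of the 20 genes with a window that fell at 100 mpk 11 held the letters (55%), and of the 11 that did not pass the test 2 did (18.2%), SLC38A1 and NARS. Whether the letters go with the fall was not tested. Windows of ATF4, DDIT3, TRIB3, PHGDH and SLC7A5 did not hold them, which says only that these letters are not in those windows.

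Libraries held 26.8 to 61.6 M reads. Of the slopes of expression on gene length, the 2 lowest were those of Helicon4neg library 2 (-0.32) and vehicle library 6 (-0.19). These 2 are called the libraries that stood apart below, although vehicle libraries 4 (-0.14) and 8 (-0.13) lay near vehicle library 6. Results that turn on the 2 are given without them too. Titles carry codes whose meaning is not stated and that follow the groups: no code holds vehicle and Helicon4 libraries together, so code and treatment cannot be told apart by direct comparison, and 3 codes hold 2 groups each. Host reads that match human genes cannot be told apart, since a mouse genome is not named in the labels. Markers of the line were present, with vehicle means of 27.9 CPM for EPCAM, 175 for KRT8 and 111 for KRT18. The intestinal factor CDX2 was at 3135 CPM, MYC at 5244 and KRT19 at 0.69, and CDH1 and VIL1 were not analysed here. Means with Helicon4neg, Helicon4 at 30 mpk and Helicon4 at 100 mpk were 4109, 2652 and 2087 CPM for CDX2. For MYC they were 6439, 5300 and 5161 CPM. Those of EPCAM were 27.7, 28.9 and 32.7, those of KRT8 174, 171 and 187, and those of KRT18 122, 102 and 102. Summed fibroblast markers (6 of 10 measured) lay at 179.8 to 275 CPM with vehicle, 219 to 303 with Helicon4neg, 135 to 189 with Helicon4 at 30 mpk and 104 to 166 at 100 mpk, and most of that sum was MMP2 and BGN. Not all measured members were lower: means with vehicle, at 30 mpk and at 100 mpk were 12.3, 21.01 and 21.4 CPM for COL1A1, 0.366, 0.838 and 2.02 for PDGFRA and 11.9, 10.7 and 11.3 for COL3A1, and COL1A2, DCN and LUM were not analysed here. Endothelial markers (CLDN5 and EGFL7 only, of 6) summed to 38.7 to 94.2, 40.0 to 146, 31.3 to 52.7 and 23.9 to 39.2 CPM in the same order, and leukocyte markers (3 of 6) to 25.9 to 42.9, 15.8 to 40.2, 23.3 to 34.2 and 24.2 to 36.9. Both the fibroblast sum, through MMP2 and BGN, and the endothelial sum were lower at 100 mpk than with vehicle, and their part in the results below was not tested. In bulk tumors, fewer cells of a type and less RNA per cell cannot be told apart.

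In vehicle tumors all 41 genes were expressed, at levels per kilobase of gene model that ran from 0.872 CPM for the stress protein gene NUPR1 to 254 CPM for ATF4 itself. EIF4EBP1 (131), PSAT1 (96.8), SHMT2 (92.99), SLC1A5 (91.3) and SLC7A5 (88.03) followed ATF4 in CPM per kilobase. Spread between vehicle libraries differed widely: the coefficient of variation of CPM was 7.11% for the glycyl-tRNA synthetase GARS and 8.15% for SLC3A2, but 40.8% for DDIT3, 40.8% for STC2 and 64.6% for INHBE. The order in CPM per kilobase depends on the lengths of the gene models, such as 5674 bases for NUPR1 and 2514 for ATF4. Apart from that order, levels are given in CPM as scaled by the authors and are compared within a gene. Each fold change is a difference between group means of log2(CPM + 1), ± its standard error. A gene was said to rise or fall at an adjusted p under 0.05 (limma, Benjamini-Hochberg over all 13373 genes tested). Shares of all genes that rose or fell come from this test. They do not apply to counts at an unadjusted p, by edgeR or DESeq2, or under other settings.

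With Helicon4 at 100 mpk most genes of the response were lower than with vehicle. Of the 41 genes 28 fell and 0 rose, where 15.9% of all genes tested fell and 14.3% rose (30.2% in either direction). The 41 genes were chosen with earlier results of these data known, so this count and those below are not independent of that choice. The 28 were 5 of 10 regulators and targets, 9 of 10 synthesis enzymes, 5 of 7 transporters and 9 of 14 genes of tRNA charging. The median log2 fold change over the 41 genes was -0.41, beside 0.0051 over all genes, and 35 of 41 values were negative. At an unadjusted p under 0.05 limma counted 30 lower and 0 higher, and the tests on recovered reads called 28 lower (edgeR) and 29 lower (DESeq2) with 0 higher in each. For 11 genes every library at 100 mpk lay below every vehicle library, against 4.13% of all genes: ASNS, CHAC1, CTH, GARS, INHBE, SLC1A5, SLC3A2, SLC7A5, SLC7A11, TARS and VARS. With the title code as a block 2 of the 28 passed, CTH (-1.77, adjusted p = 0.004) and SLC7A11 (-1.85, adjusted p = 0.042), all 28 values were negative and the median over the 41 genes was -0.61. That fit adds up the differences within 3 codes, of which SH7081 holds 1 library of Helicon4 at 30 mpk (library 1) and SH7083 another (library 6), so its values and signs rest on single libraries and show neither that a call holds nor that it is lost.

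**Figure D1:**
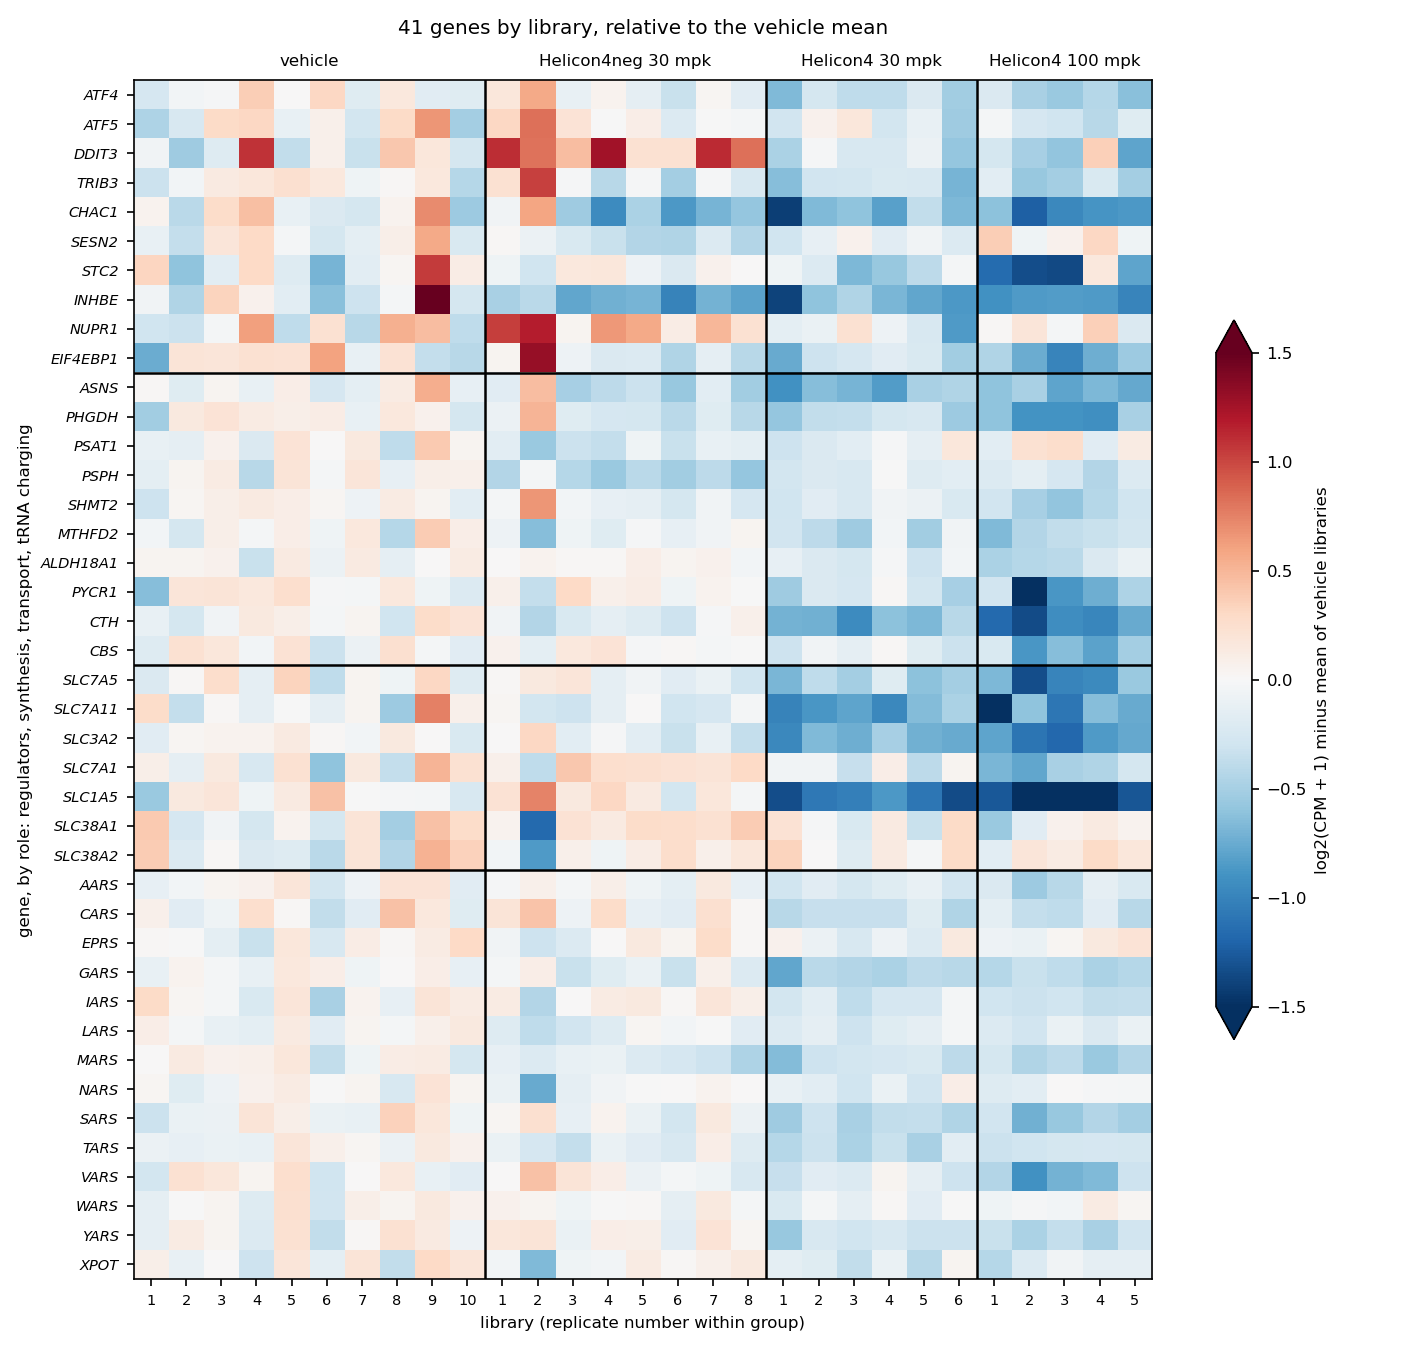
Each column is a library, grouped by treatment, and each row a gene, grouped by role; the color gives log2(CPM + 1) minus the mean of the vehicle libraries. Helicon4 columns are blue for most rows, with 34 to 41 of the 41 genes below the vehicle mean in each library at 30 mpk. At 100 mpk the range was 33 to 39. Helicon4neg columns hold both colors (19 to 30 genes below), as do vehicle columns (6 to 28). The share of all genes below their vehicle mean is not given here.

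Among the regulators, ATF4 (chr22:39519695-39522685 in GENCODE 29, GRCh38) lay at 529 to 818 CPM (median 618) with vehicle, 499.8 to 935 (median 614) with Helicon4neg and 397 to 545 (median 484) with Helicon4 at 30 mpk. At 100 mpk its 5 libraries read 542, 451, 428, 468 and 408 CPM. Of those, 4 lay below every vehicle library and library 1 did not. ATF4 mRNA fell by 0.47 ± 0.12 (adjusted p = 0.00331), 1.38-fold lower on the CPM + 1 scale.

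CHAC1, a glutathione-degrading enzyme induced by ATF4, lay at 4.85 to 13.01 CPM (median 7.39) with vehicle, 3.46 to 11.9 with Helicon4neg and 2.21 to 5.63 with Helicon4 at 30 mpk. Its libraries at 100 mpk read 4.60, 2.67, 3.39, 3.63 and 3.72 CPM, all under the lowest vehicle library. CHAC1 fell by 0.91 ± 0.21 (adjusted p = 0.00121). INHBE, which encodes an inhibin subunit, ranged over 4.75 to 24.3 CPM with vehicle, with library 9 the highest and library 3 next at 10.2, and over 3.44 to 5.70 with Helicon4neg. At 100 mpk INHBE read 3.73, 3.94, 3.95, 3.95 and 3.47 CPM, a narrow band below all vehicle libraries, and it fell by 0.89 ± 0.21 (adjusted p = 0.00156). INHBE was also low with Helicon4neg, and its difference between the compounds at 30 mpk did not pass the test, as given below.

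STC2, a secreted glycoprotein induced by stress, lay at 10.4 to 37.2 CPM (median 16.8) with vehicle and at 7.33, 6.38, 6.25, 19.7 and 9.75 CPM at 100 mpk. Library 4 at 100 mpk was above the vehicle median and the other 4 were below every vehicle library. STC2 fell by 0.89 ± 0.22 (adjusted p = 0.00217). EIF4EBP1, the translation repressor 4E-BP1, lay at 81.02 to 207 CPM (median 155) with vehicle and at 99.2, 80.7, 67.99, 81.3 and 92.9 CPM at 100 mpk, where it fell by 0.69 ± 0.21 (adjusted p = 0.0113). Only 2 of the 5 libraries lay below the lowest vehicle library, which was library 1.

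The other 5 regulators did not pass the test at 100 mpk. DDIT3, the stress transcription factor CHOP, lay at 19.9 to 63.03 CPM (median 26.9) with vehicle and 24.2, 20.5, 19.2, 37.7 and 16.5 CPM at 100 mpk, with a log2 fold change of -0.36 ± 0.21 (adjusted p = 0.205). The pseudokinase TRIB3, an ATF4 target that inhibits ATF4, lay at 40.2 to 64.6 CPM (median 57.6) with vehicle and 48.6, 36.3, 38.04, 46.6 and 38.1 CPM at 100 mpk, with -0.40 ± 0.16 (adjusted p = 0.0646). TRIB3 passed when vehicle library 1 (adjusted p = 0.0438), vehicle library 10 (0.0356) or library 1 at 100 mpk (0.0482) was left out, and without both libraries that stood apart (0.0141). For ATF5, a related leucine zipper factor, the log2 fold change was -0.24 ± 0.16, for SESN2, which signals leucine shortage to mTORC1, it was 0.12 ± 0.12, and for NUPR1 it was 0.06 ± 0.20. DDIT3 overlaps the methionyl-tRNA synthetase gene MARS on the other strand of chromosome 12, and whether counting used strand is not stated, so their reads may be mixed.

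Of the synthesis enzymes, asparagine synthetase ASNS (chr7:97852118-97872542) lay at 67.6 to 118 CPM (median 78.5) with vehicle, 54.3 to 112 (median 62.97) with Helicon4neg and 42.8 to 58.8 (median 50.5) with Helicon4 at 30 mpk. At 100 mpk the values were 52.7, 57.6, 46.3, 50.4 and 47.3 CPM, all below the lowest vehicle library. ASNS fell by 0.66 ± 0.13 (adjusted p = 2.31e-04), 1.58-fold lower. In the serine pathway, PHGDH, its first enzyme, lay at 331 to 545 CPM (median 508) with vehicle and at 312, 254, 255, 249 and 338 CPM at 100 mpk. Vehicle library 1 lay within the range at 100 mpk and the other 9 lay above it. PHGDH fell by 0.76 ± 0.12 (adjusted p = 2.21e-05).

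The next serine enzyme, PSAT1, did not follow it: its level was 212 ± 32.9 CPM (SD, n = 10) with vehicle and 219.6 ± 31.1 CPM (n = 5) at 100 mpk, a log2 fold change of 0.06 ± 0.11 (adjusted p = 0.724), which was negative with library weights, with a gene length covariate and with the title code block. PSPH, the last step to serine, fell by 0.25 ± 0.09 (adjusted p = 0.0378). That call was borderline and was lost when any 1 of several libraries was left out, as given below. PSPH was also lower with Helicon4neg against vehicle (-0.42). Its difference between the compounds at 30 mpk was positive (0.24) and did not pass the test. SHMT2 and MTHFD2, which pass serine carbon to folate in mitochondria, fell by 0.42 and 0.42 (adjusted p = 0.00251 and 0.00571). MTHFD2 has a processed copy, MTHFD2P1, so a small part of its reads is uncertain.

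The proline enzymes PYCR1 and ALDH18A1 also fell. PYCR1 lay at 158 to 296 CPM (median 260.5) with vehicle and at 203, 84.2, 135, 148 and 179 CPM at 100 mpk. Libraries 2, 3 and 4 lay below the lowest vehicle library, which was again library 1. PYCR1 fell by 0.78 ± 0.15 (adjusted p = 1.84e-04) and ALDH18A1 fell by 0.33 ± 0.08 (adjusted p = 0.00142).

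Both enzymes that turn homocysteine into cysteine were lower. CTH, the second of them, lay at 24.7 to 37.1 CPM (median 30.7) with vehicle, 22.2 to 32.3 with Helicon4neg and 15.3 to 22.6 with Helicon4 at 30 mpk, and its libraries at 100 mpk read 13.05, 11.4, 15.5, 14.99 and 17.6 CPM. Neither Helicon4 group overlapped vehicle. CTH fell by 1.04 ± 0.10 (adjusted p = 5.25e-09), 2.05-fold lower.

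CBS, the first enzyme, lay at 222 to 328 CPM (median 270.0) with vehicle and at 236, 151, 178, 159 and 194 CPM at 100 mpk, where only library 1 was within the vehicle range. CBS fell by 0.61 ± 0.10 (adjusted p = 1.94e-05). The near-identical copy CBSL was counted at 265 ± 37.0 CPM with vehicle and 174 ± 33.03 at 100 mpk, beside 279.9 ± 38.9 CPM and 183 ± 33.8 CPM for CBS, so the reads of the pair are split between them and the level of either is uncertain.

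The transporters held the largest fall of the 41 genes. SLC1A5 (chr19:46774883-46788594), a neutral amino acid carrier that imports glutamine, lay at 204 to 408 CPM (median 297) with vehicle and 248 to 502 (median 333) with Helicon4neg. With Helicon4 it lay at 119, 141, 147, 164, 141 and 118 CPM at 30 mpk and 124, 88.5, 89.2, 85.3 and 122 CPM at 100 mpk, all 11 libraries below all 18 of vehicle and Helicon4neg. SLC1A5 fell by 1.57 ± 0.14 (adjusted p = 2.82e-10), 2.96-fold lower.

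SLC7A5 and SLC3A2 encode the light and heavy chain of LAT1, which takes up leucine and other large neutral amino acids. SLC7A5 lay at 316 to 520.1 CPM (median 407) with vehicle and at 259, 164, 208, 212 and 280.2 CPM at 100 mpk. SLC3A2 lay at 275 to 358 CPM (median 329) with vehicle, 166 to 229 at 30 mpk and 187, 151, 143, 179.7 and 189.9 CPM at 100 mpk. The 100 mpk and vehicle groups did not overlap for either chain. SLC7A5 fell by 0.90 ± 0.12 (adjusted p = 9.33e-07) and SLC3A2 fell by 0.94 ± 0.09 (adjusted p = 4.48e-09).

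SLC7A11, the cystine carrier xCT that also pairs with SLC3A2, lay at 14.4 to 37.02 CPM (median 21.5) with vehicle and at 6.90, 13.8, 9.58, 13.4 and 12.3 CPM at 100 mpk, again without overlap. It fell by 0.92 ± 0.15 (adjusted p = 2.74e-05). Its antisense neighbour SLC7A11-AS1 overlaps it and was counted at 3.90 ± 0.803 CPM with vehicle and 1.37 ± 0.469 at 100 mpk. SLC7A1, which imports arginine and lysine, lay at 132 to 287 CPM (median 218) with vehicle and 125, 116, 143, 148 and 168 CPM at 100 mpk, where 2 of 5 libraries were below all vehicle libraries, and it fell by 0.53 ± 0.14 (adjusted p = 0.00432). The system A carriers SLC38A1 and SLC38A2 gave -0.10 ± 0.19 and 0.12 ± 0.16 (adjusted p = 0.731 and 0.585). The sign for SLC38A1 turned without library 1 at 100 mpk (0.02), and that for SLC38A2 was negative with the title code block and with the gene length covariate.

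Of the 13 synthetases and the tRNA exporter XPOT, 9 synthetases fell at 100 mpk. GARS (chr7:30594681-30634033) lay at 172 to 209 CPM (median 186) with vehicle, 148 to 201 with Helicon4neg, 109 to 142 with Helicon4 at 30 mpk and 139, 149, 143, 134 and 138 CPM at 100 mpk, and neither Helicon4 group overlapped vehicle. GARS fell by 0.41 ± 0.08 (adjusted p = 1.46e-04). The seryl-tRNA synthetase SARS lay at 225 to 358 CPM (median 269) with vehicle and 231, 171, 189.8, 208 and 199 CPM at 100 mpk, and library 1 was the only one at that dose above the lowest vehicle library. SARS fell by 0.51 ± 0.09 (adjusted p = 9.04e-05).

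The valyl-tRNA synthetase VARS lay at 138 to 203 CPM (median 173) with vehicle, 133 to 176 (median 149.6) at 30 mpk and 126, 90.1, 104, 107 and 137 CPM at 100 mpk. Groups at 100 mpk and vehicle did not overlap, and VARS fell by 0.61 ± 0.11 (adjusted p = 7.83e-05). MARS, YARS, IARS, AARS, CARS and TARS fell by 0.42, 0.39, 0.33, 0.31, 0.29 and 0.28. EPRS (0.04), LARS (-0.18), NARS (-0.08), WARS (0.0043) and XPOT (-0.19) did not pass the test. LARS, at an adjusted p of 0.0552, passed with DESeq2 (0.03) and without vehicle library 3 (0.0485), 4 (0.0394) or 6 (0.0321), and without both libraries that stood apart (0.015).

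**Figure D2:**
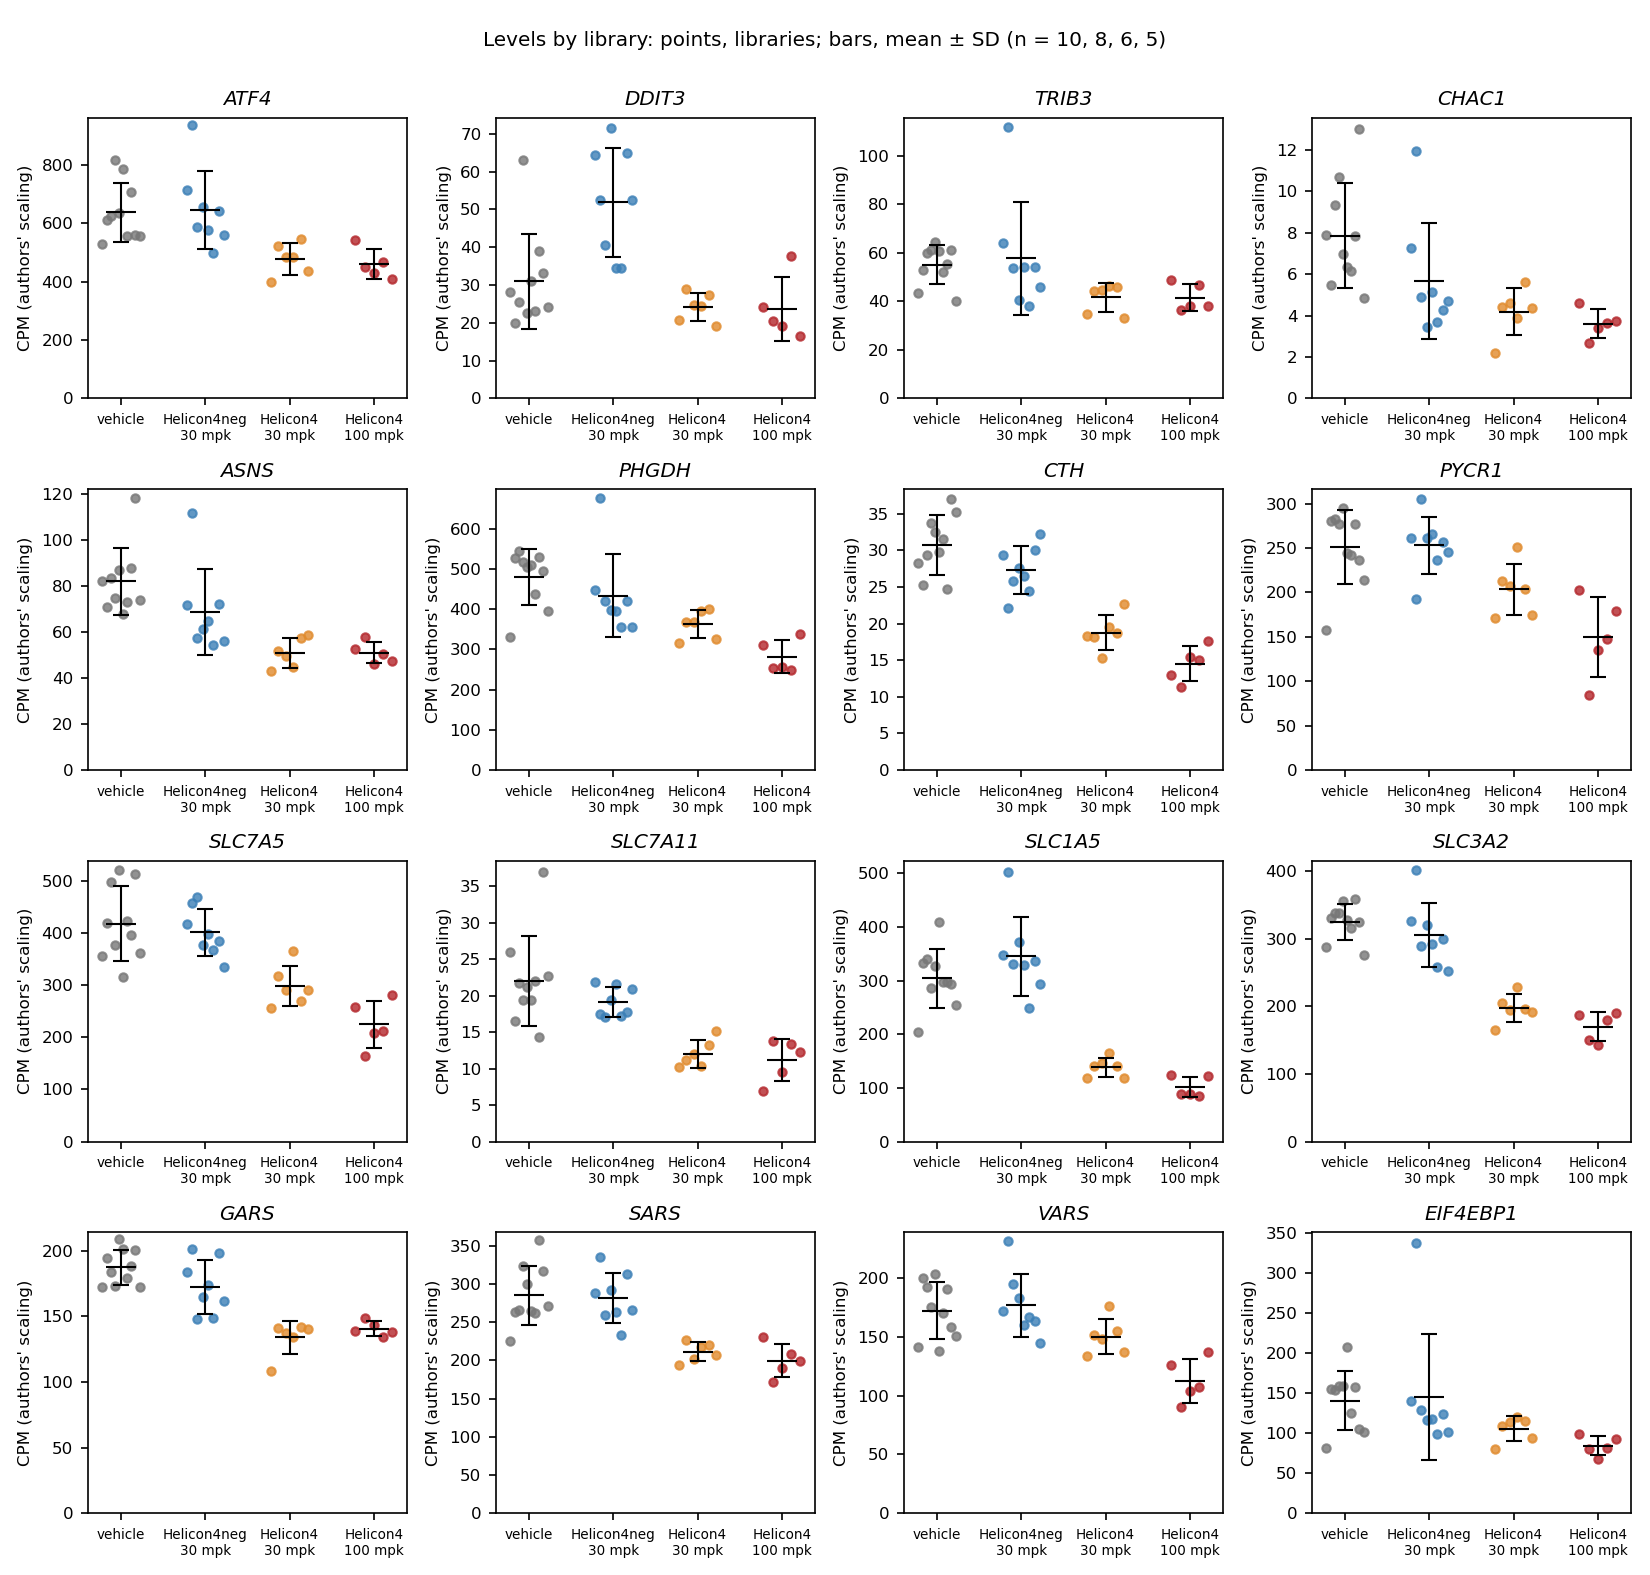
Each panel shows 1 gene with CPM on the y axis from 0 and the 4 groups on the x axis; points are libraries and bars the mean ± SD. For SLC1A5, CTH, SLC3A2 and GARS the Helicon4 points at both doses lie below all vehicle points, and for DDIT3 the Helicon4neg points (34.4 to 71.5 CPM) lie above those of Helicon4 at 30 mpk (19.2 to 28.9 CPM).

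Calls for PSPH and CARS at 100 mpk were borderline and were lost when any 1 of several libraries was left out. PSPH passed only narrowly, with an adjusted p above 0.05 without vehicle library 2 (0.0528), 3 (0.0610), 5 (0.0639), 7 (0.0617), 9 (0.0530) or 10 (0.0501) or without library 3 (0.0771), 4 (0.131) or 5 (0.0525) at 100 mpk. CARS did so without vehicle library 4 (0.0645), 5 (0.0502), 8 (0.0667) or 9 (0.0555) or without library 2 (0.0868), 3 (0.0986) or 5 (0.0944) at 100 mpk. In a fit of these 2 groups alone PSPH (0.0682) and CARS (0.0604) did not pass either, nor with the gene length covariate (0.0519 and 0.0722). That covariate brought SLC38A1 (-0.38), LARS (-0.25), NARS (-0.20) and XPOT (-0.35) past the threshold. Leaving out any 1 library left 26 to 29 of the 41 genes lower.

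Helicon4 at 30 mpk was compared with the same vehicle libraries, so both dose comparisons share their controls. At this dose 16 of the 41 genes fell and 0 rose, where 5.22% of all genes fell and 5.86% rose (11.1% in either direction). They were 3 regulators (ATF4, CHAC1 and INHBE), 3 enzymes (ASNS, PHGDH and CTH), 4 transporters (SLC1A5, SLC3A2, SLC7A5 and SLC7A11) and 6 synthetases (CARS, GARS, MARS, SARS, TARS and YARS). The median over the 41 genes was -0.29, beside -0.002 over all genes, with 39 negative values. At an unadjusted p under 0.05 limma counted 24 lower and 0 higher, and edgeR and DESeq2 called 16 and 18 lower and 0 higher. In 6 genes the groups did not overlap, ASNS, CTH, GARS, SLC1A5, SLC3A2 and TARS, against 2.39% of all genes.

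SLC1A5 again led, and fell by 1.12 ± 0.13 (adjusted p = 1.49e-07), 2.17-fold lower. The cystine and LAT1 carriers SLC7A11, SLC3A2 and SLC7A5 fell by 0.79, 0.72 and 0.48. CTH fell by 0.68 ± 0.10 (adjusted p = 8.05e-06) and ASNS fell by 0.67 ± 0.12 (adjusted p = 2.28e-04), while CBS, the partner of CTH, gave -0.16 ± 0.09 (adjusted p = 0.266). GARS fell by 0.48 ± 0.07 (adjusted p = 1.44e-05), with its 6 libraries at 109, 141, 138, 134, 142 and 140.4 CPM. All 6 lay below the lowest vehicle library, and library 1 was the lowest.

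ATF4 fell by 0.41 ± 0.11 at 30 mpk (adjusted p = 0.0142), with libraries at 397, 524, 484, 483, 545 and 438 CPM, of which library 5 and no other lay within the vehicle range. CHAC1 fell by 0.76 ± 0.19 (adjusted p = 0.0086) and INHBE fell by 0.80 ± 0.19 (adjusted p = 0.00562). Without library 1 at 30 mpk ATF4 (adjusted p = 0.0631), CARS (0.0598) and PHGDH (0.0854) did not pass, nor without library 6 CARS (0.0538) and PHGDH (0.0652). With libraries weighted by their fit the count at 30 mpk was 31 lower. The shares over all genes given above do not apply to that setting. With the title code block CTH gave -1.08. In that block fit Helicon4 at 30 mpk is represented against vehicle by library 1 alone, whose median over the 41 genes (-0.35) was the lowest of its group.

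**Figure D3:**
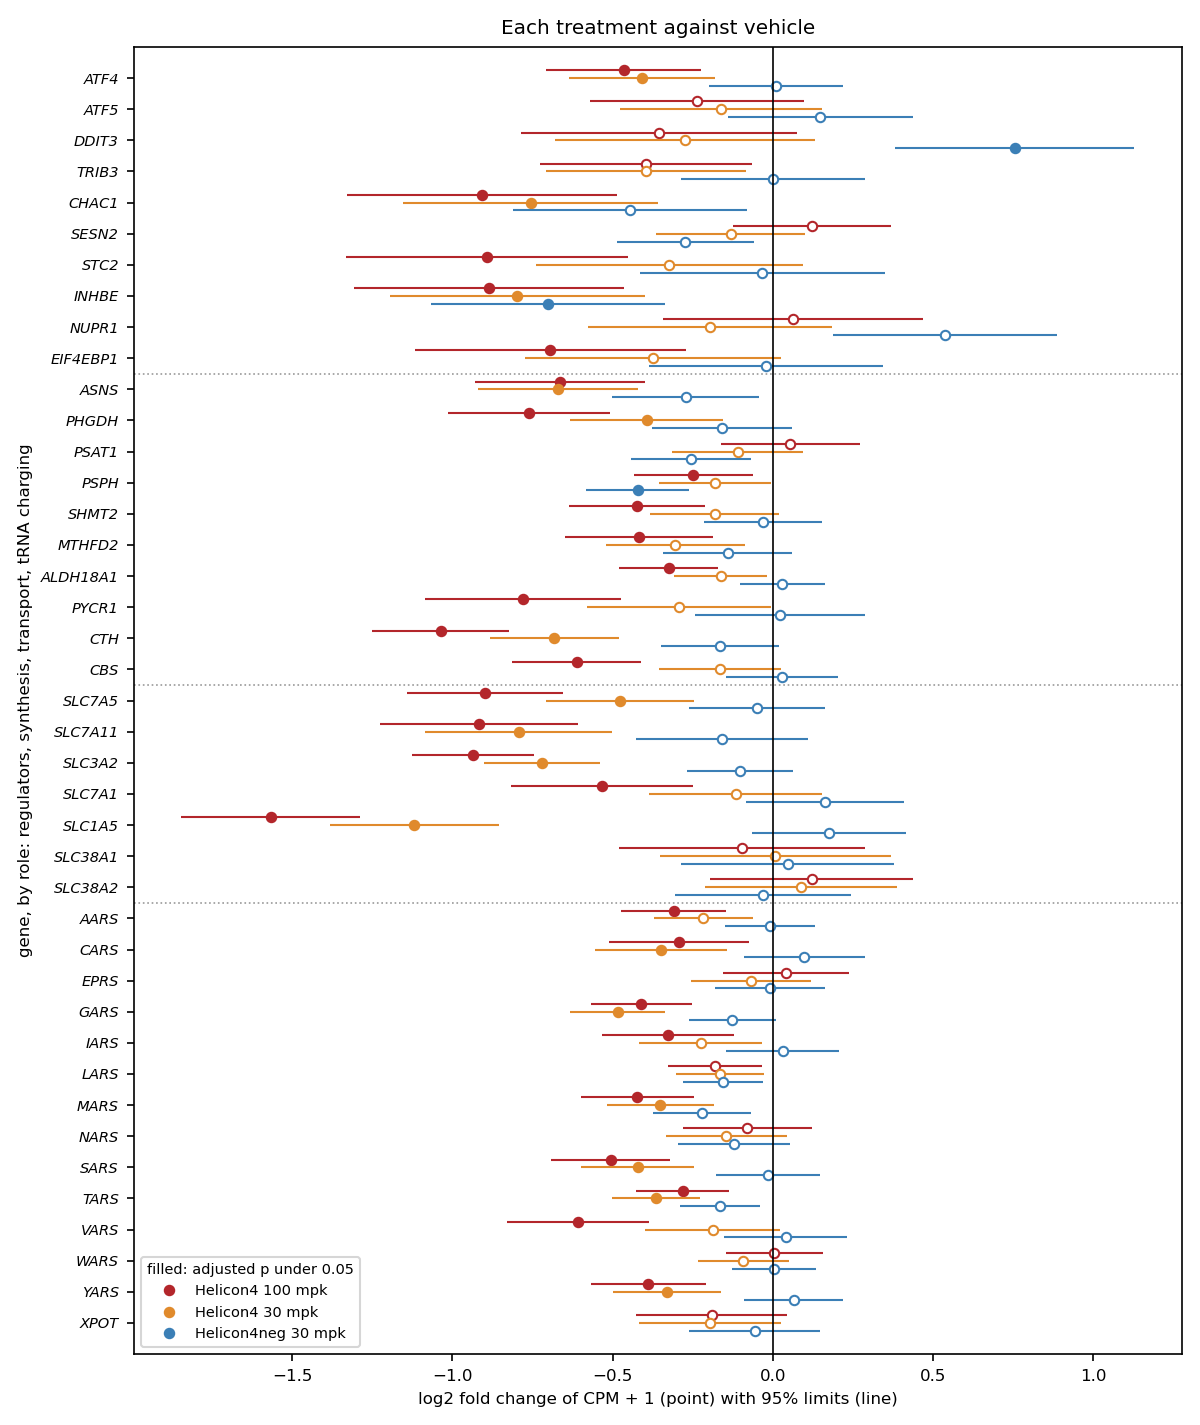
For each gene (rows, by role) the point gives the log2 fold change of CPM + 1 against vehicle on the x axis and the line its 95% limits, in red for Helicon4 at 100 mpk, orange for Helicon4 at 30 mpk and blue for Helicon4neg at 30 mpk; filled points have an adjusted p under 0.05. Filled Helicon4 points all lie left of 0, and 3 blue points are filled, DDIT3 to the right and INHBE and PSPH to the left.

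Helicon4neg at 30 mpk differed from vehicle in 3 of the 41 genes, 1 higher and 2 lower, where 2.21% of all genes rose and 2.62% fell (4.84% in either direction). At an unadjusted p under 0.05 limma counted 2 higher and 9 lower, edgeR called 1 higher and 2 lower, and DESeq2 2 higher and 3 lower. The median over the 41 genes was -0.03, beside 0.0023 over all genes, and no gene's groups were free of overlap, against 0.307% of all genes lower. DDIT3 was the gene that rose. Its libraries lay at 34.4 to 71.5 CPM (median 52.5) with Helicon4neg and 19.9 to 63.03 (median 26.9) with vehicle, where library 4 was the highest. It rose by 0.76 ± 0.18 (adjusted p = 0.0133).

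PSPH and INHBE fell. PSPH lay at 23.7 to 35.02 CPM (median 26.3) with Helicon4neg and 26.7 to 41.1 (median 37.4) with vehicle, and fell by 0.42 ± 0.08 (adjusted p = 0.00173). INHBE fell by 0.70 ± 0.18 (adjusted p = 0.0185), and fitted on these 2 groups alone it did not pass (adjusted p = 0.0655). NUPR1, a stress-induced chromatin protein, gave 0.54 ± 0.17 (adjusted p = 0.0635), with libraries at 4.91 to 11.97 CPM against 3.27 to 7.75. It passed without vehicle library 4 (0.0307), 8 (0.0384) or 9 (0.0464) or without Helicon4neg library 3 (0.0457) or 6 (0.0466). NUPR1 also passed with DESeq2 (0.0365), library weights (0.0019) and the gene length covariate (0.00218).

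For the transporters no call was made, with 0 at an unadjusted p under 0.05 and 0 by edgeR and DESeq2. SLC1A5 gave 0.18 ± 0.12 (95% interval -0.07 to 0.42), and ATF4 0.01 ± 0.10 (-0.20 to 0.22). The value for ATF4 was negative without Helicon4neg library 2 (-0.07), and without 1 of several other libraries. Within title code SH7080, which holds 5 Helicon4neg and 2 vehicle libraries, the log2 differences were 0.82 for DDIT3, -1.24 for INHBE and -0.46 for PSPH, and with the code as a block none of the 3 passed (adjusted p = 0.222, 0.0954 and 0.157). The count was 8 without Helicon4neg library 2, 5 without vehicle library 8 and 7 without both libraries that stood apart.

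At the matched dose of 30 mpk the single pair of compounds that could be compared was Helicon4 and Helicon4neg. Helicon4 at 100 mpk was not set against Helicon4neg, since the doses differ. Both groups also stand in the comparisons with vehicle above, so these results are not independent of them. Of the 41 genes 13 were lower with Helicon4 and 0 higher, where 7.31% of all genes were lower and 7.78% higher (15.1% in either direction). The 13 were DDIT3, NUPR1 and ATF4, the enzymes CTH and ASNS, the transporters SLC1A5, SLC7A11, SLC3A2 and SLC7A5, and the synthetases CARS, GARS, SARS and YARS. The median over the 41 genes was -0.26, beside -0.0029 over all genes, and 37 values were negative. At an unadjusted p under 0.05 limma counted 20 lower and 1 higher, edgeR called 13 lower and 0 higher, and DESeq2 called 16 lower and 1 higher (PSPH).

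In 8 genes all 6 Helicon4 libraries lay below all 8 Helicon4neg libraries, against 3.32% of all genes: CARS, DDIT3, GARS, SARS, SLC1A5, SLC3A2, SLC7A11 and YARS. SLC1A5 fell by 1.29 ± 0.13 (adjusted p = 2.25e-08), 2.45-fold lower. DDIT3 fell by 1.03 ± 0.21 (adjusted p = 7.05e-04), with 20.8, 28.9, 24.7, 24.6, 27.4 and 19.2 CPM under Helicon4. Against vehicle DDIT3 was -0.28 with Helicon4 (0.02 with library weights) and 0.76 with Helicon4neg. NUPR1 fell by 0.73 ± 0.20 (adjusted p = 0.00938). Against vehicle NUPR1 was -0.20 with Helicon4 and 0.54 with Helicon4neg, and neither passed (adjusted p = 0.521 and 0.0635).

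ATF4 fell by 0.42 ± 0.12 (adjusted p = 0.0136), and did not pass without Helicon4 library 1 (adjusted p = 0.0502). SLC7A11, SLC3A2 and SLC7A5 fell by 0.64, 0.62 and 0.43, and CTH by 0.52. ASNS fell by 0.40 ± 0.13 (adjusted p = 0.0314), a call lost without Helicon4neg library 1 (0.0556) or 7 (0.0549), without Helicon4 library 1 (0.0926), 3 (0.0576) or 4 (0.0717), and in a fit of these 2 groups alone (0.0750).

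Other genes did not pass, which does not show that the compounds act alike on them. INHBE, which fell against vehicle with both compounds, gave -0.10 ± 0.20 (adjusted p = 0.8). The 95% interval of the difference was -0.51 to 0.32 for INHBE, -0.73 to 0.10 for CHAC1 and -0.48 to 0.02 for PHGDH. For TRIB3 it was -0.73 to -0.07, which excludes 0, with an adjusted p of 0.095, and TRIB3 passed with DESeq2 (0.042), with the gene length covariate (0.0495) and without Helicon4neg library 6 (0.0389). PSPH was the highest of the 41 values, at 0.24 ± 0.09 (adjusted p = 0.0684), and passed without Helicon4neg library 2 (0.30, adjusted p = 0.0106) and without both libraries that stood apart (0.30, adjusted p = 0.0098), as it did with DESeq2 (0.0442), library weights (2.15e-04) and the gene length covariate (0.0209).

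Within title code SH7081, which holds 1 Helicon4 and 3 Helicon4neg libraries, 38 of 41 differences were negative with a median of -0.31. The block fit for this comparison is that same contrast, in which Helicon4 is library 1 alone, the lowest of its group for GARS. It gave 3 of the 13 genes past the threshold, SLC1A5 (-1.28), SLC3A2 (-0.70) and GARS (-0.63), and assumes that the lone library varies like the others. The count was 26 with library weights and 22 with the gene length covariate, settings to which the shares over all genes above do not apply.

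**Figure D4:**
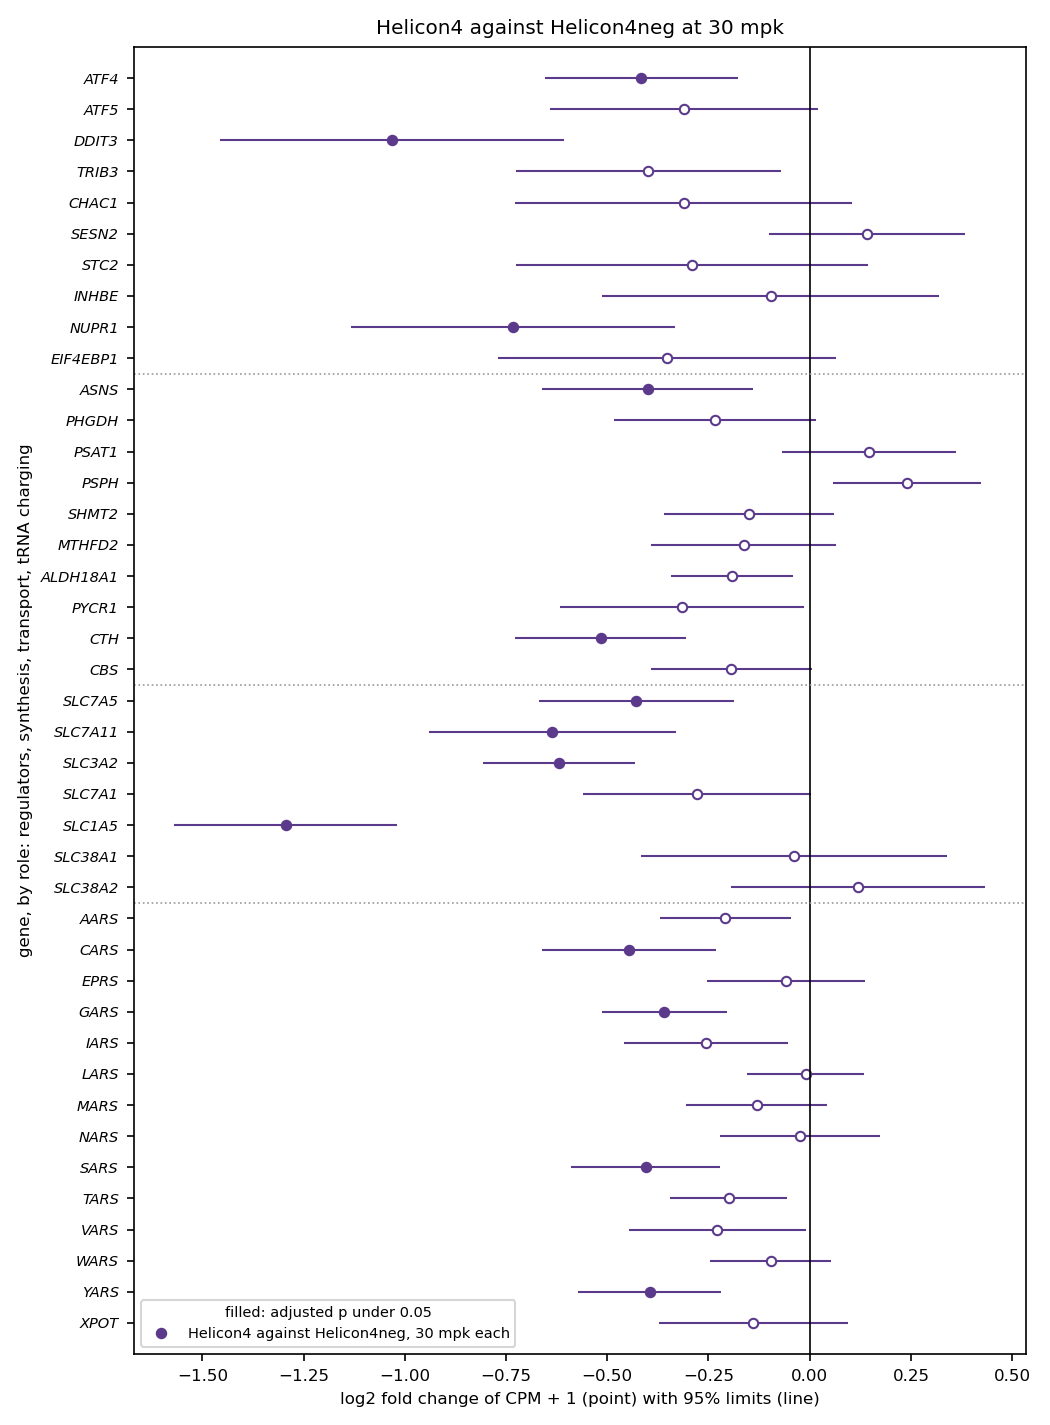
For each gene (rows, by role) the point gives the log2 fold change of CPM + 1 for Helicon4 against Helicon4neg, both at 30 mpk, on the x axis and the line its 95% limits; filled points have an adjusted p under 0.05. SLC1A5 (-1.29) and DDIT3 (-1.03) lie farthest left, and the 13 filled points all lie left of 0.

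The 2 doses of Helicon4 were compared directly, on libraries that the comparisons above also use. At 100 mpk 2 of the 41 genes were lower than at 30 mpk and 0 were higher, where 1.86% of all genes were lower and 1.74% higher (3.6% in either direction). They were CBS, which fell by 0.45 ± 0.11 (adjusted p = 0.0161), and VARS, which fell by 0.42 ± 0.12 (adjusted p = 0.0451). At an unadjusted p under 0.05 limma counted 11 lower and 0 higher, and edgeR and DESeq2 called 1 and 3 lower and 0 higher. In 0 genes did the dose groups lie apart, against 1.71% of all genes lower. CBS did not pass without library 4 at 30 mpk (0.0541) or library 2 (0.0856) or 4 (0.0603) at 100 mpk. VARS did not pass without library 2 (0.0914), 3 (0.0701), 4 (0.133) or 5 (0.0796) at 30 mpk or library 2 (0.201), 3 (0.130) or 4 (0.0984) at 100 mpk, nor with edgeR (0.0567). The count ran from 0, without library 4 at 30 mpk or library 2 at 100 mpk, to 5 without library 1 at 100 mpk, with 4 without library 5 and 1 without library 2, 3 or 5 at 30 mpk or library 3 or 4 at 100 mpk.

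Other genes gave differences between the doses that did not pass. SLC1A5 gave -0.45 ± 0.15 (adjusted p = 0.096), SLC7A5 -0.42 ± 0.13 (0.0716), PYCR1 -0.49 ± 0.17 (0.0987) and STC2 -0.57 ± 0.24 (0.2). SLC1A5 (0.0499), SLC7A5 (0.0428) and PYCR1 (0.0283) passed without library 1 at 100 mpk, SLC7A5 without library 5 (0.0272) and STC2 without library 4 (0.0348). Without both libraries that stood apart SLC1A5 (0.0245) and SLC7A5 (0.0304) passed. For ATF4 the 95% interval was -0.33 to 0.21, and the value turned positive with the title code block. Within title code SH7083, which holds 4 libraries at 100 mpk and 1 at 30 mpk, CBS differed by -0.32 and VARS by -0.37. With 1 library in an arm, the block fit is that contrast and bears little on either call.

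**Figure D5:**
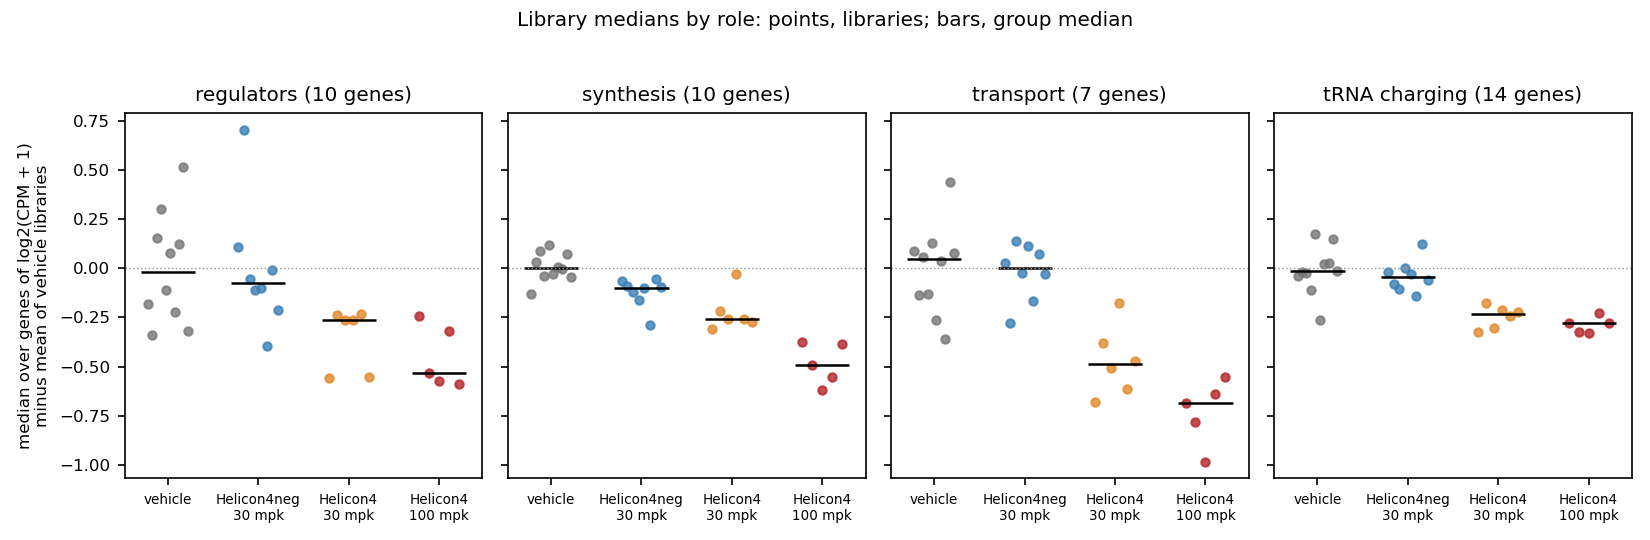
Each point is a library, placed by the median over the genes of a role of log2(CPM + 1) minus the vehicle mean (y axis), with 1 panel per role and the 4 groups on the x axis; bars are group medians. In the synthesis and transport panels all 100 mpk points lie below all vehicle points, and in the panels for regulators and tRNA charging these groups overlap.

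The same genes were summarised by library. Medians over the 7 transporters lay at -0.36 to 0.44 in vehicle libraries, -0.28 to 0.14 with Helicon4neg, -0.68 to -0.18 with Helicon4 at 30 mpk and -0.99 to -0.56 at 100 mpk. For the 10 synthesis enzymes the ranges were -0.13 to 0.12, -0.29 to -0.05, -0.31 to -0.03 and -0.62 to -0.38 in the same order. Medians over the 14 genes of tRNA charging were -0.26 to 0.17, -0.14 to 0.12, -0.32 to -0.18 and -0.33 to -0.23, so that vehicle and 100 mpk overlapped. The 10 regulators ran from -0.34 to 0.52 in vehicle libraries and from -0.59 to -0.24 at 100 mpk, again with overlap. Vehicle library 9 and Helicon4neg library 2 were the highest of their groups for the regulators.

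Other genes around the response were taken from 6 lists and compared at 100 mpk with vehicle, where 15.9% of all genes fell and 14.3% rose. Genes named here are the 3 of each list with the smallest adjusted p, so they do not stand for their whole list. Among 18 kinases, phosphatases and initiation factors around eIF2, 4 fell and 1 rose (median -0.14). EIF2B5, a subunit of the exchange factor eIF2B, fell by 0.42 ± 0.08 (adjusted p = 9.98e-05), GCN1, which helps activate GCN2, fell by 0.27 ± 0.09 (0.0261), and EIF2AK4, which encodes GCN2, rose by 0.37 ± 0.12 (0.0171). EIF2AK4 did not pass without library 3 (0.0587) or 5 (0.0517) at 100 mpk, nor GCN1 without library 2 (0.128) or 3 (0.0614) or in a fit of these 2 groups alone (0.0705). EIF2AK4 was negative with the title code block.

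Of 13 other ATF4-linked stress genes 3 fell and 1 rose (median -0.28). CEBPG and CEBPB, which encode partners of ATF4, fell by 0.42 and 0.82 (adjusted p = 6.47e-04 and 0.00431), from 63.7 ± 9.52 CPM and 35.6 ± 9.76 CPM with vehicle to 46.99 ± 4.69 CPM and 19.3 ± 2.71 CPM (SD, n = 10 and 5). KLHL24, a ubiquitin ligase adaptor, rose by 0.59 ± 0.20 (0.0236), did not pass without library 2 (0.0652), 4 (0.0533) or 5 (0.0555) at 100 mpk, and was negative with the title code block.

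Of 10 other cytosolic synthetases and cofactors 3 fell and 0 rose (median -0.17; 5 lower and 0 higher at an unadjusted p under 0.05 in limma, 3 lower and 0 higher by edgeR and by DESeq2). Both chains of phenylalanyl-tRNA synthetase were among them, FARSB, which fell by 0.39 ± 0.10 (0.00314), and FARSA, which fell by 0.50 ± 0.15 (0.01). The scaffold gene AIMP2 fell by 0.29 ± 0.10 (0.0315), and did not pass without vehicle library 3 (0.0554) or 5 (0.0577) or library 2 (0.0982), 3 (0.0964) or 4 (0.0635) at 100 mpk, or in a fit of these 2 groups alone (0.0671). Of 17 mitochondrial synthetases 4 fell and 0 rose (median -0.07; 4 lower and 0 higher at an unadjusted p under 0.05, by edgeR and by DESeq2). TARS2, CARS2 and FARS2 fell by 0.45, 0.51 and 0.83, and TARS2 and CARS2 were also lower with Helicon4neg against vehicle, by 0.25 and 0.37 (adjusted p = 0.0218 and 0.0105). TARS2 did not pass there without Helicon4neg library 8 (0.0640) or in a fit of those 2 groups alone (0.0507).

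Among 16 other amino acid transporters 4 fell and 2 rose (median -0.06). SLC7A8, which also pairs with SLC3A2 in neutral amino acid exchange, fell by 1.04 ± 0.09 (2.84e-10), from 325 ± 37.8 CPM to 157 ± 21.3 CPM. SLC1A4, a close relative of SLC1A5, fell by 0.76 ± 0.09 (1.25e-07), and the large neutral amino acid carrier gene SLC43A2 rose by 0.73 ± 0.11 (4.19e-06), from 3.62 ± 0.630 CPM to 6.62 ± 0.915 CPM. Of 27 other amino acid and one-carbon enzymes 8 fell and 3 rose (median -0.13), among them MTHFD1L, the mitochondrial formate enzyme, by 0.44, GPT2, the mitochondrial alanine transaminase, by 0.44, and ASS1, argininosuccinate synthase, by 0.66 (adjusted p = 1.26e-04, 3.45e-04 and 5.82e-04).

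The same lists were counted in the other comparisons, each with its own share over all genes. With Helicon4 at 30 mpk against vehicle, where 5.22% of all genes fell and 5.86% rose, 4 of 18 genes around eIF2 fell, 2 of 13 other ATF4-linked genes fell and 1 rose, 2 of 16 transporters fell and 2 rose, and 1 of 27 enzymes fell and 1 rose. None of the 10 cytosolic or 17 mitochondrial synthetases passed in limma at that dose, with 5 and 4 lower and 0 higher at an unadjusted p under 0.05, 0 by edgeR, and 0 and 1 by DESeq2. With Helicon4neg against vehicle, where 2.62% of all genes fell and 2.21% rose, 3 of 17 mitochondrial synthetases and 1 of 16 transporters fell. For Helicon4 against Helicon4neg at 30 mpk, where 7.31% of all genes were lower and 7.78% higher, 3 of 18 genes around eIF2, 2 of 13 other ATF4-linked genes and 1 of 10 cytosolic synthetases were lower, 1 mitochondrial synthetase was higher, and 1 transporter and 1 enzyme lay in each direction. Between the doses, where 1.86% of all genes were lower and 1.74% higher, TARS2 was lower at 100 mpk and was the only call by limma in these 6 lists.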

How the data were processed

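Libraries of tumor polyA RNA were read on a NovaSeq S4, per the labels' protocols. These give both a NEBNext Ultra II Directional and a TruSeq stranded mRNA kit, so the kit is unclear. The submitters' processing notes name Trimmomatic 0.39, STAR 2.7.7a, featureCounts, Subread 2.4.2, edgeR 4.0.2 and GRCh38, with no role or order, and strand use in counting is not stated. The authors deposited 1 table of CPM, that is, counts divided by library size after a scaling between libraries (a signal that is never negative), whose columns sum to 0.92 to 1.26 M. Gaps between low values gave whole reads in all 29 columns (100% of values within 0.05 reads) and depths of 26.8 to 61.6 M reads. Count models on these reads served as alternatives only.

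The values were analysed as log2(CPM + 1) with limma 3.58.1 (R 4.3.3, trended and robust variance) in 1 fit of all 4 groups, on the 13373 of 13492 genes that reached 1 CPM in 5 or more libraries. P-values are two-sided, with Benjamini-Hochberg adjustment over every gene tested. Alternatives were a pseudocount of 0.1, other filters, TMM factors, plain limma, the compared groups alone, blocks for replicate number and title code, library weights, a gene length covariate, single libraries left out, edgeR 4.0.16 and DESeq2 1.42.0. The procedure was tested on simulated data. Members, gene lists and the genes given with values in every library (7 regulators, 5 enzymes, 5 transporters and 3 synthetases) were chosen with earlier results of these data known. Of the other lists, 3 genes each are named. Gene positions are from GENCODE 29 and promoter windows from RefSeq.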

Additional observations from a re-analysis of the deposited data

Results flagged for a closer look

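In groups of 5 to 10 libraries, a library was listed when its gap to the next was large against the range of its group (Dixon's test at 95%). Of 164 groups, 41 genes in 4 groups, 17 had such a library, and chance gives about 1 in 20.

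Helicon4neg library 2, which also had the steepest slope on gene length, accounts for 12 of them. It was the highest of its group for EIF4EBP1 (337.2 CPM, next 140.4), ASNS (111.8, next 72.3), PHGDH (676.8, next 448.0), SHMT2 (708.6, next 437.8) and PSPH (35.02, next 27.14). It was the lowest for the transporters SLC7A1 (154.6 CPM), SLC38A1 (165.2) and SLC38A2 (120.6), for the folate enzyme MTHFD2 (137.8), for the synthetases IARS (169.5) and NARS (85.71) and for XPOT (269.0).

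Vehicle library 9 was the highest of its group for INHBE (24.28 CPM, next 10.21) and ASNS (118.2, next 87.87), and vehicle library 1 the lowest for PYCR1 (158.2, next 214.2). Library 1 of Helicon4 at 30 mpk was the lowest for the synthetases GARS (108.6, next 134.4) and YARS (126.8, next 150.4).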

How the results depend on the processing

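Of the 41 genes, the number that passed in each comparison moved by over 1.5 times as follows. With the title code block it was 2 for Helicon4 at 100 mpk and 1 at 30 mpk against vehicle, 0 for Helicon4neg against vehicle, 3 for Helicon4 against Helicon4neg and 0 between the Helicon4 doses, in a fit that rests on 1 library of Helicon4 at 30 mpk in each code that holds it with another group. With library weights these counts (leaving out 100 mpk against vehicle) were 31, 12, 26 and 10, and with the gene length covariate 10, 22 and 10 for the last 3. Without both libraries that stood apart they were 7 for Helicon4neg against vehicle and 7 between doses. DESeq2 gave 5 for Helicon4neg against vehicle, edgeR gave 1 between doses, and the replicate block 1. Leaving out 1 library gave 26 to 29, 13 to 18, 3 to 8, 11 to 16 and 0 to 5 in the order of the first sentence. The share of all genes that passed under each of these settings is not given here, so these counts are not set against it. The cause of these moves was not tested.

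Values that turned sign at 100 mpk against vehicle were, with the title code block, ATF5 (0.29), TRIB3 (0.24), PSAT1 (-0.75), SLC38A2 (-0.60), EPRS (-0.49), WARS (-0.31), EIF2AK4 (-0.21) and KLHL24 (-0.042). With the gene length covariate they were SLC38A2 (-0.11), EPRS (-0.062), PSAT1 (-0.024) and WARS (-0.015), with library weights WARS (-0.044) and PSAT1 (-0.004931), and with the replicate block NUPR1 (-0.002694) and SLC38A1 (0.050). WARS was -0.028 without both libraries that stood apart and -0.0005584 with edgeR. With 1 library left out WARS ran from -0.028 to 0.031, SLC38A1 from -0.15 to 0.019 and NUPR1 from -0.011 to 0.13. For Helicon4neg against vehicle ATF4 turned with the replicate block (-0.036), with library weights (-0.024), without both libraries that stood apart (-0.036) and with 1 library left out (-0.071 to 0.058). Between doses ATF4 was 0.10 with the title code block, and DDIT3 at 30 mpk against vehicle was 0.023 with library weights.

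Libraries were not paired by replicate number. Correlations of same-numbered deviations ran from -0.701 to 0.519 over 35 pairs, and 0 of 27 libraries correlated best with their own number. Under the replicate block PSPH (adjusted p = 0.0734) and IARS (0.0653) at 100 mpk and VARS between doses (0.0524) did not pass, and TRIB3 at 100 mpk did (0.0373).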

Other observations

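MTHFD2P1, a processed copy of the mitochondrial folate enzyme gene MTHFD2, was singled out after its values were seen. It was counted at 1.41 ± 0.333 CPM (SD, n = 10) with vehicle and 1.197 ± 0.298 (n = 8) with Helicon4neg, from 613 and 458 reads. With Helicon4 it had 8 reads over 6 libraries at 30 mpk and 2 reads over 5 libraries at 100 mpk. MTHFD2 itself fell by 0.42 on the log2 scale at 100 mpk. The antisense gene SLC7A11-AS1 fell by 1.05 at 100 mpk (adjusted p = 7.40e-08), beside 0.92 for SLC7A11, which it overlaps.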
